A study of Mus musculus with 6 samples.

Results

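O-GlcNAc transferase (OGT) joins N-acetylglucosamine to serine and threonine residues of nuclear, cytoplasmic and mitochondrial proteins, and O-GlcNAcase (OGA) takes it off again. The 10 genes described here, Tet1, Tet2, Tet3, Hcfc1, Bap1, Asxl1, Asxl2, Sin3a, Foxk1 and Trak1, encode proteins known to bind OGT or to share a complex with a protein that does. They were chosen by gene symbol from the 53445 loci of the deposited table, and none of the 10 symbols occurs more than once. Trak1 is an adaptor of mitochondrial transport and not a chromatin protein.

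RNA-Seq was performed on Lin-Sca+Kit+ (LSK) cells, the bone marrow fraction that holds hematopoietic stem cells and multipotent progenitors. The cells came from 3 OgaVav-Cre and 3 wildtype mice, all females of about 12 weeks on a C57BL/6 background with no treatment named, with at least 20000 cells sorted per mouse. In OgaVav-Cre mice a floxed Oga allele is deleted by the Vav-iCre transgene, which is active throughout the blood lineages, so that any blood cell that passed the sort carries the same deletion as the LSK cells. Whether the wildtype mice of the RNA-Seq carried a floxed allele or the transgene was not given in the sources used here. The comparison asks whether the transcripts of these genes differ in level when O-GlcNAc can be added but not removed.

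The TET proteins are dioxygenases that oxidize 5-methylcytosine, a step towards loss of DNA methylation, and loss of TET2 is well known from clonal expansion of hematopoietic stem cells. HCF-1, the product of Hcfc1, is an adaptor between transcription factors and histone-modifying enzymes. OGT both glycosylates HCF-1 and cuts it within a series of repeats. BAP1 removes ubiquitin from histone H2A together with ASXL1 or ASXL2, and its complex also holds HCF-1, OGT and the forkhead protein FOXK1. SIN3A is the scaffold of a histone deacetylase complex that recruits OGT to repressed promoters. ASXL1 and TET2 are among the genes most often mutated in human myeloid disease.

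The repeats of Hcfc1 are printed because they are the place at which OGT acts on one of these proteins as a protease as well as a glycosyltransferase. A search of the translated GENCODE M1 coding sequence for exact copies of the conserved core of the repeat gave 6 matches, all in exon 17 of 26. The matches were each extended to a set length of 60 bases or 20 codons. They lie on the minus strand of mm9 and in transcript order they occupy chrX:71195804-71195863, chrX:71195618-71195677, chrX:71195531-71195590, chrX:71194949-71195008, chrX:71194865-71194924 and chrX:71194565-71194624. Capitals mark the codons for the cysteine and the glutamate between which OGT cuts the protein.
Hcfc1 repeat 1: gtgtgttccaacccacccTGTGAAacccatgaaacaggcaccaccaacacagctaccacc
Hcfc1 repeat 2: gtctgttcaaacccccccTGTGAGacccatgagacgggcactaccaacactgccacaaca
Hcfc1 repeat 3: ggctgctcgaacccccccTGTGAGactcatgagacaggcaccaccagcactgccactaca
Hcfc1 repeat 4: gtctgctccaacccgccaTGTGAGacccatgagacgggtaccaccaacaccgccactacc
Hcfc1 repeat 5: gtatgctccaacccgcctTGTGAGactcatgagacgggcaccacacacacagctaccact
Hcfc1 repeat 6: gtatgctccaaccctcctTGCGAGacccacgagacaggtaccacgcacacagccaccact
Between pairs of repeats 75 to 86.7% of the 60 bases were identical, and 39 positions were the same in all 6. Part of this identity was set by the search, which required the same core amino acids. Repeats with a changed core were not sought. The counts per locus do not resolve the repeats from the rest of Hcfc1, and cleavage of the protein was not measured.

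The libraries held 19318056 to 27064389 reads counted on loci, with more in each OgaVav-Cre library (at least 25190298) than in any wildtype library (at most 21684561). Oga, listed as Mgea5, had 4.01 to 4.61 CPM (reads scaled to library size) in OgaVav-Cre and 116 to 154 CPM in wildtype libraries, in keeping with their labels. All 10 of the LSK markers examined were detected and their libraries overlapped between genotypes. Of their edgeR log2 fold changes 4 were above and 6 below 0, with a median of -0.22 and a range of -0.62 to 1.03. Among these markers 0 had an unadjusted p-value below 0.05. Kit, the stem cell factor receptor, had 251 to 542 CPM in the OgaVav-Cre libraries against 372 to 602 CPM in wildtype. Ly6a, which encodes Sca-1, had 100 to 218 CPM against 42.3 to 122 CPM. Signal from other cells was present as well. The 3 loci Ighm, Igkc and Igj held 1.17 to 9.88% of the reads in the OgaVav-Cre libraries, highest in replicate 1, against 1.36 to 5.48% in the wildtype libraries, highest in replicate 2. The summed level of 11 plasma cell markers, most of it from these 3 loci, ranged from 12187 to 112982 CPM in OgaVav-Cre and from 12996 to 56167 CPM in wildtype. All 11 had an edgeR log2 fold change above 0, with a median of 0.68. Of them 0 had an unadjusted p-value below 0.05, and the libraries of each overlapped between genotypes. With the immunoglobulin share as a covariate in edgeR, and without the 2 libraries of highest share, none of the other 9 genes had an unadjusted p-value below 0.05, and the values for Tet2 are given with that gene.

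All 10 genes were transcribed in LSK cells of both genotypes. Levels of different genes are compared per length, in the deposited RPKM, which divide the reads of a locus by its length and by the depth of the library. Hcfc1 had the highest level, with a mean of 26.1 RPKM over the 6 libraries, above 91.1% of the 22032 loci that had enough reads to be tested. Asxl1 (16.3 RPKM), Bap1 (15.7 RPKM) and Sin3a (13.8 RPKM) followed. Foxk1 (9.23 RPKM), Trak1 (7.34 RPKM) and Tet3 (6.91 RPKM) formed a middle group. The lowest were Tet1 (4.06 RPKM), Asxl2 (4.03 RPKM) and Tet2 (3.43 RPKM), which stood near the middle of all tested loci, Tet2 at the 49.1 percentile.

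Only some of these neighbours are separated beyond the spread of the libraries. Every Hcfc1 value (18.6 to 32.0 RPKM) lay above every Asxl1 value (14.4 to 17.5 RPKM), every Sin3a value (11.9 to 15.1 RPKM) above every Foxk1 value (7.97 to 10.7 RPKM), and every Tet3 value (5.64 to 8.38 RPKM) above every Tet1 value (3.40 to 4.86 RPKM). Asxl1, Bap1 and Sin3a overlapped one another in succession, as did Foxk1, Trak1 and Tet3, and likewise Tet1, Asxl2 and Tet2. The order of the 10 means was the same in CPM per kilobase with edgeR's trimmed mean of M values (TMM) scaling. The deposited Tet1 locus ends 19104 bases short of the 5′ end that GENCODE M1 gives the gene, so reads on exons upstream of it are not in the Tet1 values.

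**Figure D1:**
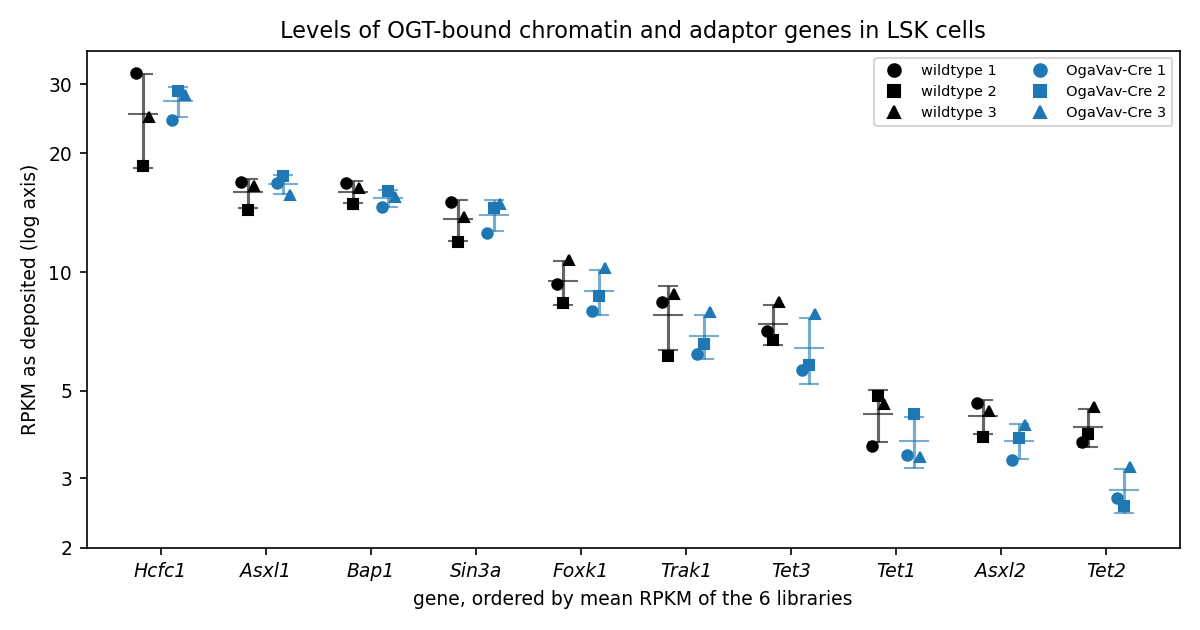
Level of each of the 10 genes in RPKM, on a log axis, in the 3 OgaVav-Cre and the 3 wildtype libraries, one point per library with the mean and SD of each genotype, ordered by mean over all libraries. Hcfc1 lies highest (18.6 to 32.0 RPKM) and Tet2 lowest, and Tet2 is the one gene whose OgaVav-Cre points (2.55 to 3.21 RPKM) all lie below its wildtype points (3.72 to 4.56 RPKM).

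Between genotypes the levels of these genes differed little, with Tet2 the lowest relative to wildtype. None of the 10 passed an adjusted p-value of 0.05 with a log2 fold change beyond 1 in edgeR's quasi-likelihood test, and none passed the adjusted p-value alone. The share of all 22032 tested loci that passed both cutoffs was 0.0318%, which is 7 loci, and the same 7 were all that passed the adjusted p-value. DESeq2 and limma-voom also called 0 of the 10. For DESeq2 the shares were 0.321% past both cutoffs and 0.524% past the adjusted p-value, of 36466 loci with a DESeq2 p-value. These include loci with few reads that the filter before edgeR left out. The shares of DESeq2 and edgeR are therefore over unlike sets of loci. At an unadjusted p-value below 0.05, 1 of the 10 (Tet2, lower) was counted by each of the 3 tools. The shares of loci were 10.6% of 22032 in edgeR and 6.72% of 36466 in DESeq2. In 1 of the 10 (Tet2, lower) the CPM of the libraries did not overlap between genotypes, against 17.5% of all loci, 9.97% with the OgaVav-Cre libraries lower. Of the 10 log2 fold changes 4 were above and 6 below 0, with a median of -0.06 beside 0.0041 for all loci, of which 49.5% were below 0. These counts are close to what the whole table gives.

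No 95% interval of a log2 fold change reached 1 in either direction. The widest reach was that of Tet2, to -0.77, and on the other side that of Hcfc1, to 0.62.

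**Figure D2:**
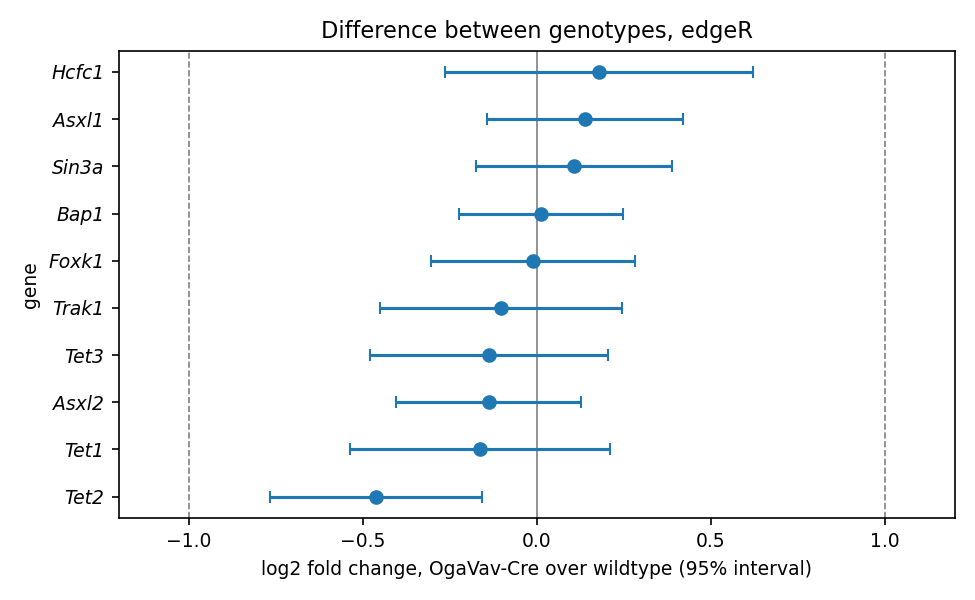
Log2 fold change of each gene, OgaVav-Cre over wildtype, from edgeR's quasi-likelihood test with its 95% interval, with lines at 0 and at the cutoffs of -1 and 1. The interval of Tet2 (-0.77 to -0.16) is the one that leaves out 0, and all 10 lie between the cutoffs.

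The reads counted on Tet2 were 1113, 1095 and 1473 in the OgaVav-Cre libraries, in the order of replicates 1, 2 and 3, and 1311, 1279 and 1746 in the wildtype libraries. This order of replicates is kept below. Scaled with TMM, these came to 49.4, 43.3 and 53.7 CPM in OgaVav-Cre against 61.4, 66.3 and 73.9 CPM in wildtype. The genotypes did not overlap, since even the highest OgaVav-Cre value lay under the lowest wildtype value. The means were 48.8 ± 5.23 CPM (SD, n = 3) and 67.2 ± 6.26 CPM (SD, n = 3), so that the fitted OgaVav-Cre level was 72.6% of wildtype. The log2 fold change was -0.46 with a standard error of 0.131, and its edgeR p-value was 0.00823 before and 0.412 after adjustment over all loci. By DESeq2 the p-values were 0.0127 and 0.324. The difference therefore did not pass the correction for the number of loci. In bulk RNA, fewer cells of a type and less RNA per cell cannot be told apart, for Tet2 and for the other genes.

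Tet2 was followed further with the values of other cells beside it. With the immunoglobulin share of each library as a covariate the log2 fold change was -0.44, and the edgeR p-value was 0.0202 before and 0.524 after adjustment. With the summed level of lineage-positive markers as a covariate it was -0.46, with edgeR p-values of 0.00469 and 0.203. Without the 2 libraries of highest immunoglobulin share, OgaVav-Cre replicate 1 and wildtype replicate 2, it was -0.47, with edgeR p-values of 0.0645 and 0.949. The size of the difference was thus nearly the same in each of these fits, and its p-value was not. The fits are not separate checks, since the libraries with the highest lineage-positive marker levels had the lowest immunoglobulin shares.

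The window around the start of Tet2 is shown because its promoter is itself rich in CpG, the dinucleotide whose methylation TET proteins remove. It runs from 250 bases before to 50 bases after the start given by RefSeq on GRCm38.p6, and its 300 bases match mm9 exactly at chr3:133207305-133207604, minus strand. Capitals mark CpG dinucleotides.
Tet2 promoter window: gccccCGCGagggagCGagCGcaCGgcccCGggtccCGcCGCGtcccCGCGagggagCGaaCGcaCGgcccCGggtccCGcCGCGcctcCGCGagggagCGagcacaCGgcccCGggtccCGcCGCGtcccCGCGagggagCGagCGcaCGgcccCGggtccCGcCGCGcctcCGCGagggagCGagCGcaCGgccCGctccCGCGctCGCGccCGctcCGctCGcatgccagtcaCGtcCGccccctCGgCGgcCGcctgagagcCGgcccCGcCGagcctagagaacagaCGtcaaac
The window held 57 CpG and 81.3% G or C. As many CpG were found in 0.152% of the 32851 RefSeq windows of that length, whose median was 7. Much of it is a tandem repeat with a unit of 42 bases. The next 3 copies share 40, 40 and 41 of their 42 bases with the first copy, and the one after them shares 32. Windows were given for 9 of the 10 genes, Foxk1 being the exception, and the richest window of each of the 9 held 13 to 57 CpG. DNA methylation was not measured in these libraries.

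The other TET genes also had lower means in OgaVav-Cre, but their libraries overlapped. Tet3, whose product is known for oxidizing 5-methylcytosine in the zygote, had 111, 106 and 140 CPM in the OgaVav-Cre libraries against 125, 123 and 145 CPM in wildtype. Its log2 fold change was -0.14 (95% interval -0.48 to 0.20, edgeR adjusted p = 0.749). Replicate 3 was the highest library in both genotypes, and the difference between the means (119 and 131 CPM) was smaller than the SD of either genotype (18.4 and 12.3 CPM).

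Tet1, the family member known from embryonic stem cells, had 61.2, 71.5 and 54.7 CPM in the OgaVav-Cre libraries against 57.6, 79.8 and 72.4 CPM in wildtype. The highest and the lowest values came from different genotypes, but the wildtype value of 57.6 CPM lay below the OgaVav-Cre mean of 62.5 ± 8.50 CPM (SD, n = 3). The log2 fold change was -0.16 (95% interval -0.54 to 0.21, edgeR adjusted p = 0.726). The summed level of the 3 TET genes was 11.7, 12.7 and 14.5 RPKM in OgaVav-Cre and 14.4, 15.5 and 17.6 RPKM in wildtype. The sums overlapped only in that OgaVav-Cre replicate 3 was barely above wildtype replicate 1.

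Hcfc1 had 254, 277 and 267 CPM in the OgaVav-Cre libraries against 299, 179 and 227 CPM in wildtype. The wildtype libraries held both the highest and the lowest value, and the OgaVav-Cre libraries lay between them. The means were 266 ± 11.4 CPM and 235 ± 60.4 CPM (SD, n = 3 each). The log2 fold change was 0.18 (95% interval -0.26 to 0.62, edgeR adjusted p = 0.745), and it ranged from 0.025 without wildtype replicate 2 to 0.39 without wildtype replicate 1. Hcfc2, the shorter relative that lacks the repeats cut by OGT, had 27.0, 26.0 and 26.7 CPM in the OgaVav-Cre libraries against 29.8, 29.8 and 32.5 CPM in wildtype. All 3 OgaVav-Cre libraries were below the wildtype libraries, with a log2 fold change of -0.21 (edgeR adjusted p = 0.563).

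Bap1 was the steadiest of the 10 genes across the 6 libraries. It had 69.5, 70.3 and 66.8 CPM in the OgaVav-Cre libraries against 71.6, 65.3 and 68.0 CPM in wildtype. The highest library exceeded the lowest by a factor of 1.10, against 1.22 to 1.70 for the other 9 genes. Its log2 fold change was 0.012 (95% interval -0.22 to 0.25, edgeR adjusted p = 0.974).

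The ASXL cofactors of BAP1 had log2 fold changes of opposite sign. Asxl1 had 156, 150 and 132 CPM in the OgaVav-Cre libraries against 140, 124 and 134 CPM in wildtype. Its log2 fold change was 0.14 (95% interval -0.14 to 0.42, edgeR adjusted p = 0.687). Asxl2 had 91.3, 95.9 and 101 CPM in the OgaVav-Cre libraries against 114, 96.7 and 107 CPM in wildtype. OgaVav-Cre libraries were the lower ones except that replicate 3 lay above wildtype replicate 2, and the log2 fold change was -0.14 (95% interval -0.41 to 0.13, edgeR adjusted p = 0.672). Neither passed the test. Asxl3 had 5 reads in OgaVav-Cre replicate 1 and 0 in the other 5 libraries, where 0 reads allow up to 0.155 CPM, and was not tested.

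Foxk1, whose product brings BAP1 to DNA, had 74.2, 74.5 and 86.5 CPM in the OgaVav-Cre libraries against 77.8, 71.6 and 87.6 CPM in wildtype. The genotypes ran side by side, with replicate 3 the highest in both, and the log2 fold change was -0.01 (95% interval -0.30 to 0.28, edgeR adjusted p = 0.982). An opposite-strand locus, AK155443 at chr5:142932472-142933537, lies within Foxk1 and had 217 to 377 reads. Whether the counting used strand was not given in the sources used here, so that reads of the pair may not be told apart.

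Sin3a had 123, 130 and 132 CPM in the OgaVav-Cre libraries against 132, 107 and 118 CPM in wildtype. The libraries overlapped, since wildtype replicate 1 was among the highest, and the log2 fold change was 0.11 (95% interval -0.17 to 0.39, edgeR adjusted p = 0.763). The opposite-strand locus 2410133F24Rik, with 87 to 200 reads, overlaps it. Sin3b, the related scaffold, had 76.6, 70.6 and 67.2 CPM in the OgaVav-Cre libraries against 69.5, 82.1 and 82.0 CPM in wildtype (log2 fold change -0.12, edgeR adjusted p = 0.714). Another opposite-strand locus, Large, overlaps Sin3b and had 233 to 353 reads.

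Trak1, which links mitochondria to kinesin and dynein and carries OGT to them, had 69.7, 67.9 and 80.2 CPM in the OgaVav-Cre libraries against 84.0, 63.5 and 86.5 CPM in wildtype. The lowest library was wildtype, as were the highest 2, and the log2 fold change was -0.10 (95% interval -0.45 to 0.24, edgeR adjusted p = 0.817). Trak2 had 64.1 to 93.4 CPM in the OgaVav-Cre libraries against 71.0 to 91.1 CPM in wildtype, with a log2 fold change of -0.06 (edgeR adjusted p = 0.922).

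Beside these partners, Ogt itself had 518, 400 and 544 CPM in the OgaVav-Cre libraries against 594, 908 and 870 CPM in wildtype. Its libraries did not overlap either, and its log2 fold change was -0.70 with a standard error of 0.205 (edgeR adjusted p = 0.412). Like Tet2, it did not pass the correction.

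Because paralogs can take each other's place in a complex, the share of each gene in its family was also compared, as a percentage of the summed RPKM of the family in each library. Shares were tested by a two-sided exact permutation test, which with 3 libraries against 3 cannot go below p = 0.1. Tet2 made up 22.7, 20.0 and 22.2% of TET RPKM in OgaVav-Cre and 25.8, 25.1 and 25.9% in wildtype. The genotypes did not overlap, and the means of 21.7 ± 1.45% and 25.6 ± 0.440% (SD, n = 3) differed by -3.96 percentage points (exact permutation p = 0.1, 0.4 after adjustment over 8 shares). Tet3 was the most abundant TET transcript in all 6 libraries, with 45.7 to 54.2% in OgaVav-Cre and 43.5 to 49.1% in wildtype. Tet1 had 23.5 to 34.3% and 25.1 to 31.4%.

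Asxl1 made up 83.4, 82.2 and 79.4% of Asxl1 and Asxl2 in OgaVav-Cre and 78.4, 79.0 and 78.7% in wildtype. Here too every OgaVav-Cre share was above every wildtype share, by a mean of 2.95 percentage points (exact permutation p = 0.1, adjusted 0.4), although the closest libraries, 79.4 and 79.0%, were nearly level. By raw reads in place of RPKM the mean difference was 4.59 percentage points. In the other families the genotypes overlapped. Hcfc1 supplied 90.3 to 91.3% of Hcfc1 and Hcfc2 in OgaVav-Cre and 85.6 to 90.8% in wildtype. Sin3a supplied 56.8 to 61.7% and 51.8 to 60.9%, Foxk1 51.2 to 53.2% and 51.1 to 60.8%, and Trak1 39.9 to 45.0% and 40.9 to 44.5%. The Foxk share is uncertain, since a second locus, Narf/Foxk2, covers Foxk2 on the same strand. So is the Sin3a share, since opposite-strand loci overlap Sin3a and Sin3b and strand use in the counting was not given.

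**Figure D3:**
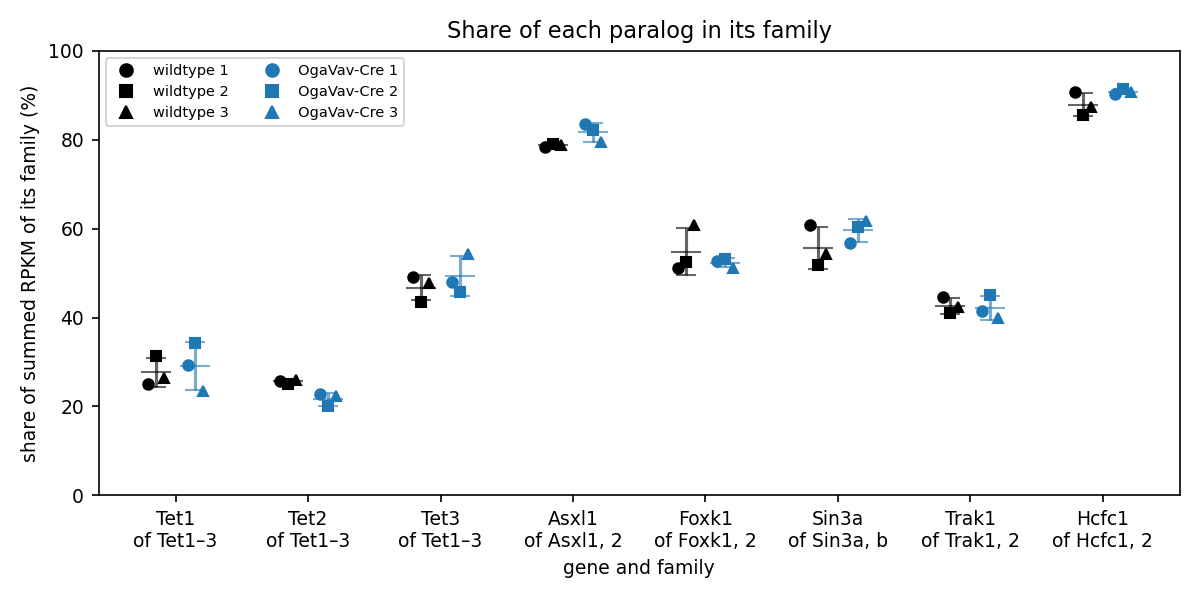
Share of each gene in the summed RPKM of its family, in percent, one point per library, for 8 shares in 6 families, with the mean and SD of each genotype. Only Tet2, lower in OgaVav-Cre, and Asxl1, higher in OgaVav-Cre, have points that do not overlap between genotypes, and 0.1 is the smallest p that 3 against 3 allow.

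The other genes of the complexes to which these proteins belong were examined as 7 lists with 99 genes in all, of which 96 were tested. None passed both cutoffs in edgeR or in any alternative, and none passed the adjusted p-value in edgeR. DESeq2 placed 2 of them, D2hgdh and Tdg, past the adjusted p-value, where 0.524% of 36466 loci passed. At an unadjusted edgeR p-value 1 gene was higher and 7 were lower in OgaVav-Cre, where all loci gave 4.38% and 6.27%. The libraries did not overlap in 3 genes with OgaVav-Cre higher and in 15 with OgaVav-Cre lower, against 7.5% and 9.97% of all loci. The median log2 fold change of the 96 was 0.02, beside 0.0041 for all loci.

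Among 19 tested genes of 5-methylcytosine oxidation and repair, 11 had a log2 fold change above 0 and 8 below, with a median of 0.06, and 1 was higher and 3 were lower at an unadjusted p-value. D2hgdh encodes the enzyme that clears D-2-hydroxyglutarate, an inhibitor of TET proteins. It had 15.8, 17.9 and 16.6 CPM in the OgaVav-Cre libraries against 25.8, 32.6 and 29.1 CPM in wildtype, without overlap. Its log2 fold change was -0.80 with a standard error of 0.148 (edgeR adjusted p = 0.272, DESeq2 adjusted p = 0.0194). Tdg encodes the glycosylase that excises the oxidized bases that TET proteins make.
It had 33.1, 28.7 and 27.1 CPM in the OgaVav-Cre libraries against 20.3, 16.7 and 16.1 CPM in wildtype, again without overlap but in the opposite direction. Its log2 fold change was 0.74 with a standard error of 0.158 (edgeR adjusted p = 0.360, DESeq2 adjusted p = 0.0350). Both genes thus passed the adjusted p-value in DESeq2 and not in edgeR, and neither reached a log2 fold change of 1. The remaining pair at an unadjusted p-value, the glycosylase genes Neil1 and Neil2, are named after their values were seen. Neil1 had 10.2 to 17.1 CPM in the OgaVav-Cre libraries against 18.5 to 26.6 CPM in wildtype (log2 fold change -0.58, edgeR adjusted p = 0.460). Neil2 was scarce, at 0.620 to 0.798 CPM against 1.12 to 5.08 CPM (log2 fold change -1.97, edgeR adjusted p = 0.412).

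The partners of HCF-1 showed small log2 fold changes. In the SET1 and MLL histone H3 lysine methyltransferase complexes, 1 of 12 genes was lower at an unadjusted p-value and the median was -0.0089. This was Kmt2a (listed as Mll1), a methyltransferase that hematopoietic stem cells require. It had 178, 230 and 242 CPM in the OgaVav-Cre libraries against 272, 281 and 349 CPM in wildtype, without overlap, and a log2 fold change of -0.47 (edgeR adjusted p = 0.428). Men1, which tethers MLL1 to DNA, had 52.1 to 56.0 CPM against 59.1 to 65.0 CPM and a log2 fold change of -0.19 (edgeR adjusted p = 0.547). Of 13 transcription factors that bind HCF-1, 0 were counted at an unadjusted p-value and the median was 0.05. Those with the smallest p-values were the cell cycle regulators E2f1 (log2 fold change 0.31, edgeR adjusted p = 0.557) and E2f3 (0.14, edgeR adjusted p = 0.675).

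In the BAP1 deubiquitinase complex 1 of 11 genes was lower at an unadjusted p-value, and the median was -0.01. Mbd6, whose product binds BAP1, had 69.0, 71.5 and 56.3 CPM in the OgaVav-Cre libraries against 78.1, 98.0 and 115 CPM in wildtype, without overlap, and a log2 fold change of -0.57 with a standard error of 0.170 (edgeR adjusted p = 0.412). Ipo5, an importin, had a log2 fold change of 0.29 (edgeR adjusted p = 0.563). The SIN3 complex had the highest median of the 7 lists, 0.10, with 1 of 21 genes lower at an unadjusted p-value. That gene was Arid4a, a chromatin reader of the complex, with 76.3 to 92.2 CPM in OgaVav-Cre against 95.4 to 120 CPM in wildtype (log2 fold change -0.39, edgeR adjusted p = 0.425). Morf4l1, a chromodomain subunit, had a log2 fold change of 0.49 (edgeR adjusted p = 0.517). Its libraries overlapped, at 14.4, 22.7 and 12.1 CPM in OgaVav-Cre against 12.4, 11.6 and 11.0 CPM in wildtype. The symbols Morf4l1 and Ipo5 each occur at 2 loci, of which the longer was used.

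The NSL histone acetyltransferase complex, whose KANSL subunits bind HCF-1 and OGT, had 1 of 8 genes lower at an unadjusted p-value and a median of -0.01. Phf20l1, a methyl-lysine reader, had 94.1, 92.0 and 110 CPM in the OgaVav-Cre libraries against 118, 133 and 143 CPM in wildtype, without overlap, and a log2 fold change of -0.41 (edgeR adjusted p = 0.412). Kat8, its acetyltransferase, had a log2 fold change of -0.32 (edgeR adjusted p = 0.539). In mitochondrial transport with TRAK, 0 of 13 tested genes were counted at an unadjusted p-value and the median was -0.06. Armcx3, a mitochondrial outer membrane protein (log2 fold change -0.55, edgeR adjusted p = 0.483), and the kinesin heavy chain Kif5a (-1.21, edgeR adjusted p = 0.497) had the smallest p-values, both at mean levels below 6 CPM.

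**Figure D4:**
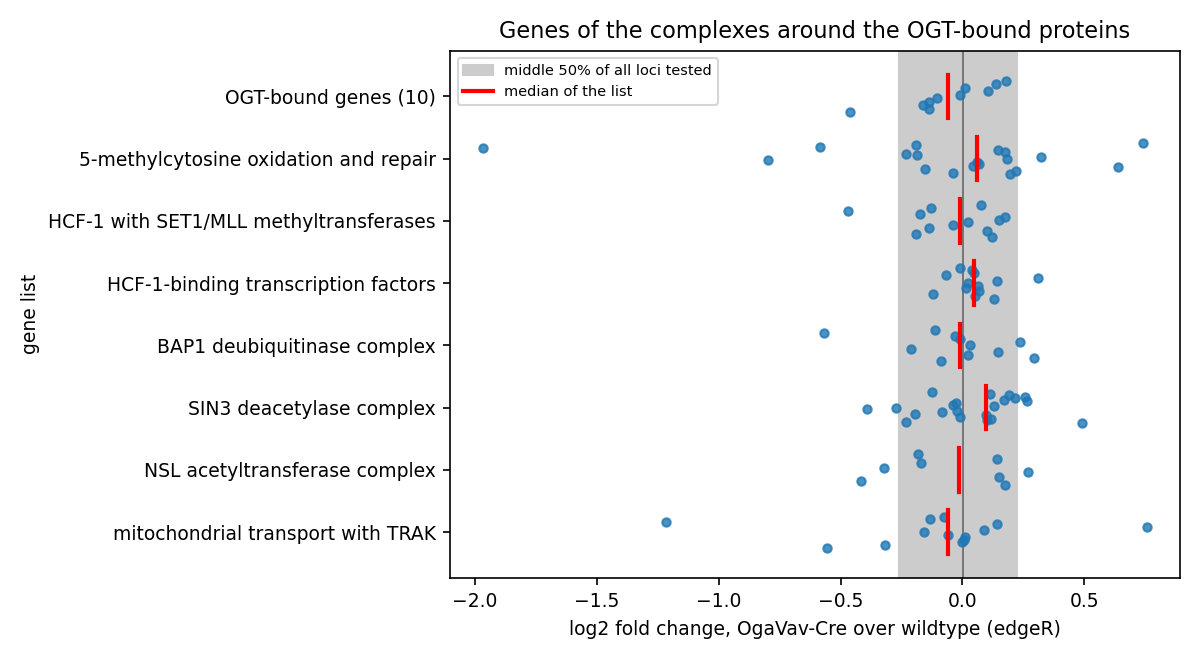
Log2 fold change, OgaVav-Cre over wildtype by edgeR, of each of the 10 genes (top row) and each tested gene in the 7 lists of complexes, one point per gene, with the median of each list as a red bar and the middle 50% of all loci, from -0.26 to 0.22, in grey. The list medians lie between -0.06 and 0.10, inside the grey band, and the points farthest from 0 are Neil2 (-1.97) and Kif5a (-1.21).

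The members also varied between libraries of the same genotype, and for some this variation ran with the signal of mature blood cells. No correlation with that signal passed adjustment, as given below. The summed level of 10 lineage-positive markers, among them Cd3e and Itgam, was 180, 134 and 555 CPM in OgaVav-Cre replicates 1 to 3 and 283, 155 and 357 CPM in wildtype replicates 1 to 3. All 10 markers were tested, with 1 (the T helper cell marker Cd4) higher in OgaVav-Cre at an unadjusted p-value, and Ly6g, a neutrophil marker, had 0 reads in wildtype replicate 1. The T cell receptor component Cd3e lay between 0.396 and 8.17 CPM. Replicate 3 had the highest marker level in both genotypes. It also had the highest CPM of Foxk1, Trak1, Tet3 and Tet2 in both. OgaVav-Cre replicate 3 and wildtype replicates 3 and 1 had the highest marker levels and the lowest immunoglobulin shares (1.17, 1.36 and 2.05%). OgaVav-Cre replicate 3 also had the lowest Kit (251 CPM), Cd34 (287 CPM) and Flt3 (202 CPM). Over 6 libraries these signals cannot be told apart. With the marker level as a covariate in edgeR the log2 fold changes between genotypes were 0.00015 for Foxk1, -0.08 for Trak1 and -0.13 for Tet3.

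Over the 6 libraries, the log2 CPM of Foxk1 had a Pearson correlation of 0.908 with the log2 summed marker level (exact permutation p = 0.025, 0.167 after adjustment over the 10 genes) and a Spearman correlation of 0.771 (exact permutation p = 0.103). For Tet3 Pearson's r was 0.866 (exact permutation p = 0.0333, adjusted 0.167) and Spearman's rho 0.886 (exact permutation p = 0.0333). For Trak1 r was 0.817 (exact permutation p = 0.0722, adjusted 0.241) and rho 0.771 (exact permutation p = 0.103). Without OgaVav-Cre replicates 2 and 3, the libraries farthest from the median marker level, r was 0.943 for Foxk1, 0.790 for Tet3 and 0.982 for Trak1. These values rest on few libraries and were not tested. In the same libraries r was 0.797 for Asxl2 and 0.479 to 0.525 for Tet2, Sin3a, Hcfc1 and Bap1. It was 0.044 for Asxl1 and -0.253 for Tet1. No correlation over the 6 libraries passed the adjustment. Tet1 had the most negative correlation, with r = -0.617 and rho = -0.543 (exact permutation p = 0.169 and 0.297). For Tet2 r was 0.370 and rho 0.429 (exact permutation p = 0.458 and 0.419), and its genotype difference with the marker level as a covariate is given above.

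**Figure D5:**
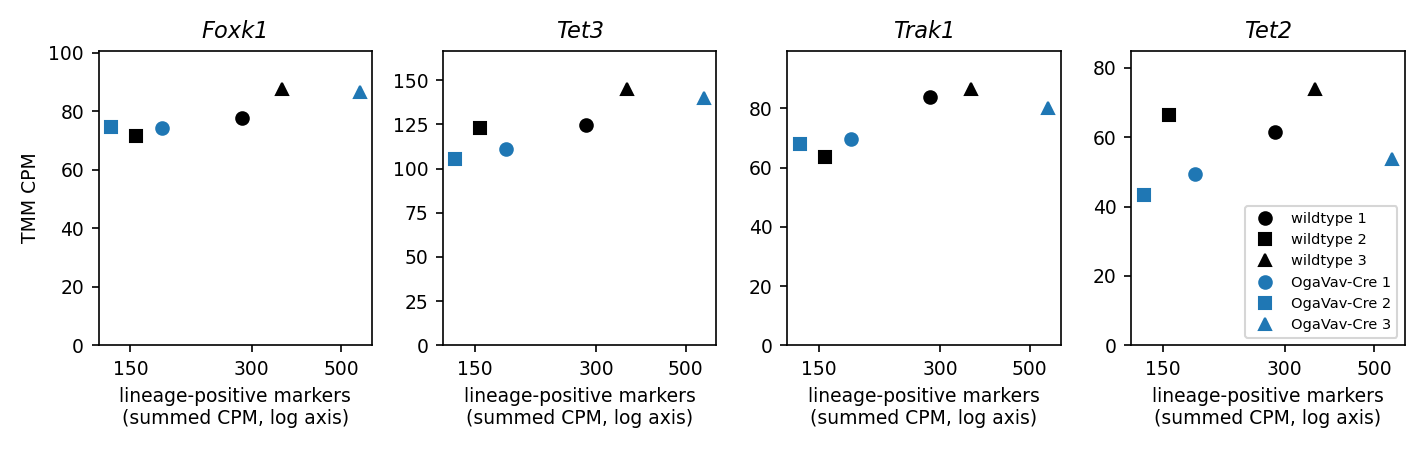
CPM of Foxk1, Tet3, Trak1 and Tet2 (linear axes from 0) against the summed CPM of 10 lineage-positive markers (log axis) in the 6 libraries, with a colour for each genotype and a symbol for each replicate. Replicate 3 of each genotype, at 555 and 357 CPM of markers, lies farthest to the right and highest for Foxk1, Trak1, Tet3 and Tet2 among the libraries of its genotype.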

How the data were processed

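Poly(A) RNA was sequenced by the authors as single-end reads of 50 bp, aligned to mm9 and summarized per locus with Genomatix. Per the labels CASAVA 1.8.2 was used. Whether the counting used strand or shared reads between loci is not given in the sources used here. The deposited values used were counts, raw whole-number reads per locus and library, and RPKM, made by the authors with a divisor of 112 to 119% of the counted total. Locus lengths are as deposited. Of 53445 loci, 59.9% overlap another.

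Genotype and replicate number came from the labels, and 1 library stands for 1 mouse. Counts were fitted in R 4.3.3 with edgeR 4.0.16 (TMM, filterByExpr, glmQLFit, glmQLFTest) and p-values were adjusted by Benjamini-Hochberg over 22032 loci. Standard errors were taken from the F statistic, and intervals are 95%. CPM are TMM-scaled. A count of 0 was read as up to 3 reads (0.111 to 0.155 CPM by library total), which covers counting error only. The biological coefficient of variation was 0.308. Columns of the authors' own fold changes and p-values, and their normalized expression, were not used.

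The members and gene lists were chosen with earlier results of these data known. All members, their paralogs, Ogt, Oga and 2 genes of smallest p per list were named by rule, with marker genes and overlapping loci. Alternatives were RLE scaling, no filter, a minimum of 10 reads per library, limma-voom 3.58.1, DESeq2 1.42.0, the replicate number as a block, the immunoglobulin share as covariate, immunoglobulin loci left out, and each library left out. A marker covariate and leaving out 2 libraries were added after seeing the data. The tests were checked on simulated counts. Promoter windows came from RefSeq (GRCm38.p6), Hcfc1 coordinates from mm9 with GENCODE M1. Tables, permutation tests and figures were made with scipy 1.17.1, numpy 2.4.6, pandas 2.3.3 and matplotlib 3.10.9 in Python 3.11.15.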

Additional observations from a re-analysis of the deposited data

How the results depend on the processing

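None of the 10 genes passed both cutoffs under any alternative. Loci past both cutoffs numbered 7 in the fit reported, 21 without the filter on low counts, 117 with DESeq2, 5 with limma-voom, 4 with at least 10 reads in every library, 10 with the immunoglobulin share and 12 with the lineage-positive marker level as a covariate, and 3 without the 2 libraries of highest immunoglobulin share. With each library left out in turn they numbered 3 to 9. Genes of the 10 at an unadjusted p below 0.05 numbered 1 to 2 with each library left out, Hcfc1 joining Tet2 without wildtype replicate 1, when 14.5% of all loci were counted (5.39 to 14.5% over the 6 libraries left out). They numbered 0 without the 2 libraries of highest immunoglobulin share, when 4.22% of all loci were counted. Genes with no overlap between genotypes numbered 1 to 4 with each library left out. They were Tet2, Tet3, Asxl1 and Asxl2 without OgaVav-Cre replicate 3, Tet1, Tet2, Hcfc1 and Sin3a without wildtype replicate 1, and Tet2, Asxl2 and Trak1 without wildtype replicate 2, when 34.1, 35.9 and 26.4% of all loci did not overlap.

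The log2 fold change of Tet2 was -0.53 to -0.38 with each library left out and had an unadjusted p below 0.05 in 15 of 16 alternatives, with adjusted p between 0.203 and 0.949. With each library left out those of the other genes kept their sign but moved, from 0.025 to 0.39 for Hcfc1, -0.28 to -0.054 for Tet1, -0.27 to -0.055 for Tet3, -0.23 to -0.025 for Trak1, 0.043 to 0.19 for Sin3a, 0.090 to 0.21 for Asxl1 and -0.19 to -0.080 for Asxl2, except for Bap1 and Foxk1, whose values near 0 changed sign. Bap1 ranged from -0.014 to 0.049 with each library left out and was -0.018 without the 2 libraries. Foxk1 ranged from -0.085 to 0.068 and was 0.0037 with RLE scaling, 0.0049 with DESeq2, 0.052 with the immunoglobulin covariate and 0.00015 with the marker covariate. With each library left out, the difference in family share ranged from -1.24 to 4.16 percentage points for Tet1, from -4.24 to 0.578 for Foxk1 and from -1.92 to 0.630 for Trak1. It was below 0 for Tet1 without OgaVav-Cre replicate 2, and above 0 for Foxk1 without wildtype replicate 3 (0.578) and for Trak1 without OgaVav-Cre replicate 3 (0.630) or wildtype replicate 1 (0.492). The cause of these changes was not tested.

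Deviations from the genotype mean correlated at -0.081, 0.260 and 0.316 between libraries of equal replicate number, for replicates 1, 2 and 3. Between libraries of unequal number they correlated at -0.381 to 0.206. OgaVav-Cre replicates 2 and 3 thus each correlated best with the wildtype library of their own number. The sources used here do not say that equal numbers mark litters or days, so the numbers were not taken to pair the mice. With the replicate number as a block, Tet2 had a log2 fold change of -0.46 with edgeR p-values of 0.00734 before and 0.334 after adjustment, and 6 loci passed both cutoffs. Summing the reads of loci with the same symbol gave no other value, since no symbol of the 10 repeats.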
